A study of Mus musculus with 9 samples.

Results

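The family of miR-148 and miR-152 was followed in small RNA sequencing (sRNA-seq) of mouse preleukemic cells with and without the terminal uridylyl transferases TUT4 and TUT7. Members were chosen by name, as the mature miRNAs mmu-miR-148a-3p, mmu-miR-148b-3p, mmu-miR-152-3p and mmu-miR-148a-5p, which are 4 of the 817 mature miRNAs counted. The first 3 share a seed, and miR-148a-5p is the opposite arm of the miR-148a hairpin. All 4 were present in the data, although miR-152-3p gave only 78 reads over 9 libraries.

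A miRNA is cut from a hairpin precursor and guides Argonaute proteins to mRNAs, which it recognizes mainly through its seed, the bases near its 5′ end. Members of a seed family can therefore recognize many of the same mRNAs while differing in the rest of their sequence. miR-148a and miR-152 are known for silencing the DNA methyltransferase Dnmt1, and miR-148a is also known for its action on the LDL receptor and lipid metabolism. TUT4 and TUT7 add uridines to the 3′ ends of RNAs, miRNAs and their precursors included, and these uridines are not encoded in the genome and appear as Ts in the reads.

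Both groups consisted of c-Kit–enriched C57BL/6 fetal liver cells, taken from midgestation embryos, that had been transduced with Meis1 and Hoxa9, so the controls carried these leukemia-associated factors too. The 4 Tut4/7 cKO libraries came from Tut4 fl/fl;Tut7 fl/fl cells with Vav-iCre, a recombinase expressed throughout the blood system, and the 5 Tut4/7 CTL libraries came from cells of littermates lacking iCre. Per the study's methods, the transduced cells were passed through repeated rounds of colony growth in semisolid medium. The controls held 209702 to 316620 miRNA reads each, and the Tut4/7 cKO libraries 175462 to 479342. The study's methods state in general that replicates of its mouse cells came from different animals or embryos. The labels do not tie single libraries to an embryo or culture, and p-values measure the spread between these libraries. Deletion of Tut4 and Tut7 could not be checked directly, since sRNA-seq does not measure their mRNAs. The myeloid miR-223-3p was present in every library, at 2991 to 11447 CPM (read counts scaled to the size of each library) in Tut4/7 CTL and 1027 to 9501 in Tut4/7 cKO. The hematopoietic miR-142a-3p was much lower, at 70.6 to 151 CPM in Tut4/7 CTL and 30.2 to 157 in Tut4/7 cKO. Its opposite arm miR-142a-5p had 8 reads in all of Tut4/7 CTL and 11 in all of Tut4/7 cKO, and was not found in every control. The erythroid miR-451a had 2 and 3 reads per genotype in all. The hepatocyte miR-122-5p was also detected, at 482 to 1246 and 694 to 1505 CPM, above both arms of miR-142a. The part of miR-122-5p in the results was not tested.

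The mature sequences show what the members share and where they part. They are the RefSeq sequences, 5′ to 3′, with the seed (bases 2 to 8) in capitals:
miR-148a-3p: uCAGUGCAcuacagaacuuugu
miR-148b-3p: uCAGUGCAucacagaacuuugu
miR-152-3p: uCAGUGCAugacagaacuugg
miR-148a-5p: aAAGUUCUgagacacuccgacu

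The seed CAGUGCA was identical in miR-148a-3p, miR-148b-3p and miR-152-3p, and miR-148a-5p has a different one. miR-148a-3p and miR-148b-3p were identical at 20 of 22 positions and differed only by C9U and U10C, counted from 1 at the 5′ end of miR-148a-3p. Their last 12 bases, acagaacuuugu, were therefore the same. miR-152-3p differed from miR-148a-3p by C9U, U10G and U20G and was 21 bases long. Against miR-148b-3p it carried C10G and U20G. Its 3′ end is thus the only one of the 3 that is not UGU.

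In GRCm39, miR-148a-3p lies at chr6:51246809-51246830 on the minus strand, and miR-148a-5p lies on the same hairpin at chr6:51246847-51246868. The Mir148a hairpin is within an intron of the long noncoding RNA Gm38821, on the same strand. miR-148b-3p lies at chr15:103193612-103193633 on the plus strand, in an intron of Copz1. miR-152-3p lies at chr11:96741265-96741285 on the plus strand, in an intron of Copz2, the paralog of Copz1. Copz1 and Copz2 encode subunits of the coatomer complex, which coats vesicles of the Golgi. The genomic base after the mature end is C for miR-148a-3p, miR-148b-3p and miR-148a-5p and G for miR-152-3p. A T past the mature end of any member is therefore not templated by its own locus.

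The reads themselves show the contrast between miR-148a-3p and miR-148b-3p. The main read forms are printed as deposited, as DNA letters, with the Ts added past the mature end in capitals and with reads summed over the libraries of each genotype:
miR-148b-3p, 1 base short (692 reads in controls, 892 in Tut4/7 cKO): tcagtgcatcacagaactttg
miR-148b-3p, mature end (4741 and 6556 reads): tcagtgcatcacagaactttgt
miR-148b-3p, 1 T (1555 and 52 reads): tcagtgcatcacagaactttgtT
miR-148b-3p, 2 Ts (202 and 4 reads): tcagtgcatcacagaactttgtTT
miR-148b-3p, 3 Ts (185 and 1 reads): tcagtgcatcacagaactttgtTTT
miR-148a-3p, 1 base short (24 and 37 reads): tcagtgcactacagaactttg
miR-148a-3p, mature end (25284 and 32739 reads): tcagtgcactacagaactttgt
miR-148a-3p, 1 T (34 and 24 reads): tcagtgcactacagaactttgtT
miR-152-3p, mature end (26 and 25 reads): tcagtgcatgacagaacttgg
miR-152-3p, 1 T (10 and 0 reads): tcagtgcatgacagaacttggT

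None of the reads of the 4 members also matched another RefSeq mature miRNA with added Ts. The members were thus not confused with each other or with other miRNAs in RefSeq. Mature sequences that RefSeq lacks were not checked. The reference carried 3 added Ts and allowed no mismatch, so reads with longer tails, with any other base past the mature end, or starting before base 1 could not be mapped. All shares below are of the reads this reference allowed. miR-148a-3p and miR-148b-3p end in U, so a read that had lost this U and gained 1 back is identical to the mature sequence and was counted as mature. Only reads with a T past the mature end are called uridylated here.

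miR-148a-3p was the most abundant member, followed by miR-148b-3p, miR-148a-5p and miR-152-3p, and this order held in all 9 libraries. Abundance is given as CPM after TMM normalization and counts reads whatever their length. Differences between miRNAs in adapter ligation were not measured. In Tut4/7 CTL, miR-148a-3p averaged 18393 ± 610 CPM (SD, n = 5), and miR-148b-3p 5433 ± 780. miR-148a-5p averaged 389 ± 98.6, and miR-152-3p 36.6 ± 34.6. By mean CPM these levels ranked 13, 33, 93 and 192 of 817 miRNAs in Tut4/7 CTL, and 12, 32, 96 and 237 in Tut4/7 cKO. The ranges of neighbors in this order did not overlap in either genotype. The lowest miR-148a-3p library had 17722 CPM and the highest miR-148b-3p library 6632 CPM. Likewise, the lowest miR-148a-5p library had 121 CPM and the highest miR-152-3p library 80.4 CPM.

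**Figure D1:**
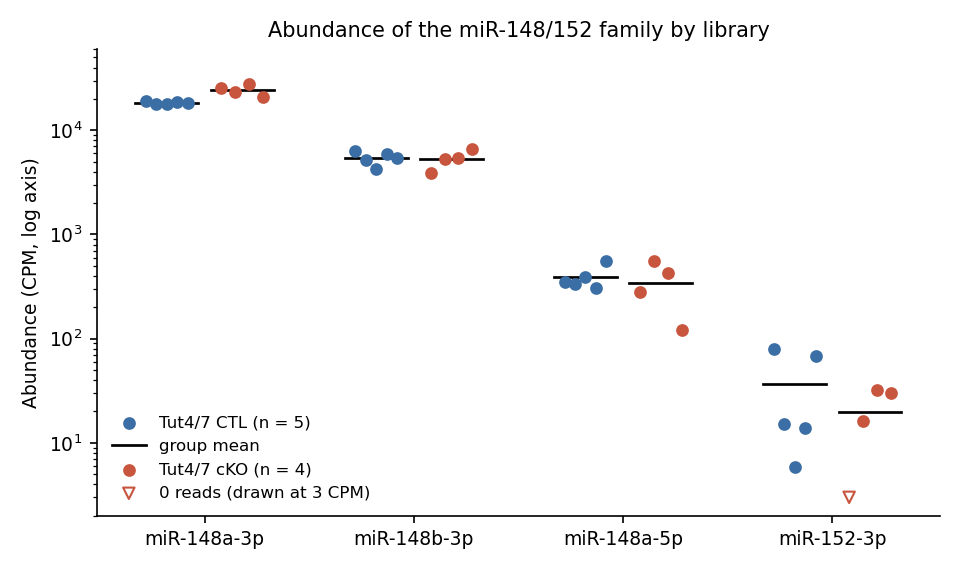
Abundance of the 4 members in each library, as CPM on a log axis, with Tut4/7 CTL (n = 5) in blue, Tut4/7 cKO (n = 4) in red and black lines at the group means; the open triangle marks the Tut4/7 cKO library without a miR-152-3p read. The levels fall in the order miR-148a-3p, miR-148b-3p, miR-148a-5p and miR-152-3p, and only miR-148a-3p has groups that do not overlap.

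No member changed in abundance past an adjusted p of 0.05, in a comparison in which edgeR's quasi-likelihood test called 1 of 205 miRNAs (0.488%). miR-148a-3p had 19192, 17722, 17922, 18810 and 18320 CPM in Tut4/7 CTL replicates 1 to 5 and 25484, 23328, 27933 and 20803 CPM in Tut4/7 cKO replicates 1 to 4. Every Tut4/7 cKO library was above every control, a pattern held by 3.41% of the tested miRNAs, and 3.41% showed the opposite. The log2 fold change was 0.41 (SE 0.17), with an unadjusted p of 0.0367 and an adjusted p of 0.300 in edgeR's quasi-likelihood test with Benjamini-Hochberg adjustment. An unadjusted p below 0.05 was reached by 15.1% of the 205 miRNAs. In such bulk libraries, a difference in the number of cells of one type cannot be told apart from a difference in RNA per cell.

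miR-148b-3p had 6311, 5153, 4291, 5963 and 5449 CPM in Tut4/7 CTL and 3872, 5257, 5470 and 6632 CPM in Tut4/7 cKO. The ranges overlapped and the means, 5433 ± 780 (SD, n = 5) and 5308 ± 1132 (SD, n = 4), were within the spread of the libraries. The log2 fold change was -0.03 (SE 0.25, adjusted p = 0.958 in edgeR's quasi-likelihood test). miR-148a-5p averaged 389 ± 98.6 and 346 ± 187 CPM, with overlapping ranges and a log2 fold change of -0.17 (SE 0.42, adjusted p = 0.867 in the same test). miR-152-3p had 18, 4, 2, 4 and 18 reads in the controls and 0, 6, 14 and 12 reads in Tut4/7 cKO. At this depth its log2 fold change of -0.73 had an SE of 0.84 (adjusted p = 0.720 in edgeR's quasi-likelihood test), and no difference was detectable. Omitting single libraries moved it from -1.06, without control replicate 4, to -0.23, without control replicate 1.

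Together the 3 seed-sharing members held 2.50% ± 0.218 of all miRNA reads among the controls and 2.81% ± 0.290 after deletion. Within the family, miR-148a-3p made up 77.2% ± 2.16 of the reads in the controls and 81.9% ± 4.65 in Tut4/7 cKO, and miR-148b-3p 22.7% ± 2.08 and 18.0% ± 4.61. The log2 ratio of miR-148b-3p to miR-148a-3p reads, which needs no normalization between libraries, was -1.60, -1.78, -2.06, -1.66 and -1.75 in Tut4/7 CTL and -2.72, -2.15, -2.35 and -1.65 in Tut4/7 cKO. The first 3 Tut4/7 cKO replicates lay below all controls and replicate 4 lay among them. The mean difference was -0.45, with p = 0.111 in an exact 2-sided permutation test over the libraries. Omitting Tut4/7 cKO replicate 4 gave -0.64, with p = 0.0357 in the same exact test, the smallest that 5 against 3 libraries can give. Every other single omission gave p from 0.114 to 0.25 in that test.

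Uridylation set miR-148b-3p apart from miR-148a-3p in every library. miR-148b-3p was uridylated in 27.5%, 3.51%, 31.8%, 33.2% and 32.8% of its reads in Tut4/7 CTL replicates 1 to 5. In Tut4/7 cKO replicates 1 to 4 the shares were 2.12%, 0.982%, 0.501% and 0.531%. Control replicate 2 stood far below the other controls, yet above all Tut4/7 cKO libraries, so the groups did not overlap. Its 95% Wilson interval of 2.66% to 4.62% met that of Tut4/7 cKO replicate 1, 1.21% to 3.66%, so that these libraries were not separated at this depth. Such intervals cover counting error only, since PCR copies cannot be told from separate molecules in these reads.

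Over all reads, 1943 of 7399 miR-148b-3p reads were uridylated in Tut4/7 CTL (26.3%, exact 95% interval 25.3% to 27.3%), against 57 of 7535 in Tut4/7 cKO (0.756%, 0.573% to 0.979%). Intervals of pooled reads, here and below, cover counting error only and not the spread between libraries. The control libraries ran from 3.51% to 33.2%. The mean share fell from 25.8% ± 12.6 (SD, n = 5) to 1.03% ± 0.755 (SD, n = 4). The odds of a uridylated read fell by 5.14 on the log2 scale (SE 0.79, adjusted p = 7.92e-05 in edgeR's quasi-likelihood test with Benjamini-Hochberg adjustment). This fall was part of a broad one. Of 143 miRNAs tested, 85 (59.4%) fell past the threshold and 0 rose, and 34.3% had no overlap between the genotypes. Entry to this test required uridylated reads in controls, which favors falls over rises. With entry blind to genotype, 85 of 151 fell and 0 rose. The median log2 change over the 143 was -2.84. For 119 of them a RefSeq hairpin gave the base after the mature end. In 53 it was U at 1 or more loci, so that a T there can be templated, and 25 of these fell (47.2%), against 46 of the 66 with another base (69.7%). Control replicate 2 was also low for other miRNAs, with a median uridylated share of 0.644% over 138 miRNAs against 3.50% to 4.58% in the other controls and 0.0738% to 0.209% in Tut4/7 cKO. Without that library the control mean of miR-148b-3p was 31.3% ± 2.64 (SD, n = 4).

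miR-148a-3p, with the same last 12 bases, was almost never uridylated. Its shares were 0.163%, 0.106%, 0.148%, 0.204% and 0.123% in Tut4/7 CTL and 0.0536%, 0.0932%, 0.0736% and 0.0604% in Tut4/7 cKO, from between 2 and 11 uridylated reads in each library. All 4 Tut4/7 cKO libraries were below all controls, a pattern held by 34.3% of the 143 tested miRNAs. The nearest libraries were not separated at this depth. The Wilson interval was 0.0454% to 0.249% for control replicate 2 and 0.0472% to 0.184% for Tut4/7 cKO replicate 2. In all, 38 of 25362 reads were uridylated in the controls and 24 of 32826 in Tut4/7 cKO. The log2 change in odds was -1.04 (SE 0.50), which missed the threshold with an adjusted p of 0.0868 in edgeR's quasi-likelihood test. Without control replicate 2 it was -1.13, with an adjusted p of 0.0282 in that test. The control replicate that was low for miR-148b-3p had the lowest share of miR-148a-3p among the controls as well. This rests on 5 of 4705 reads, against 6 of 4875 in control replicate 5, and does not set the library apart.

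**Figure D2:**
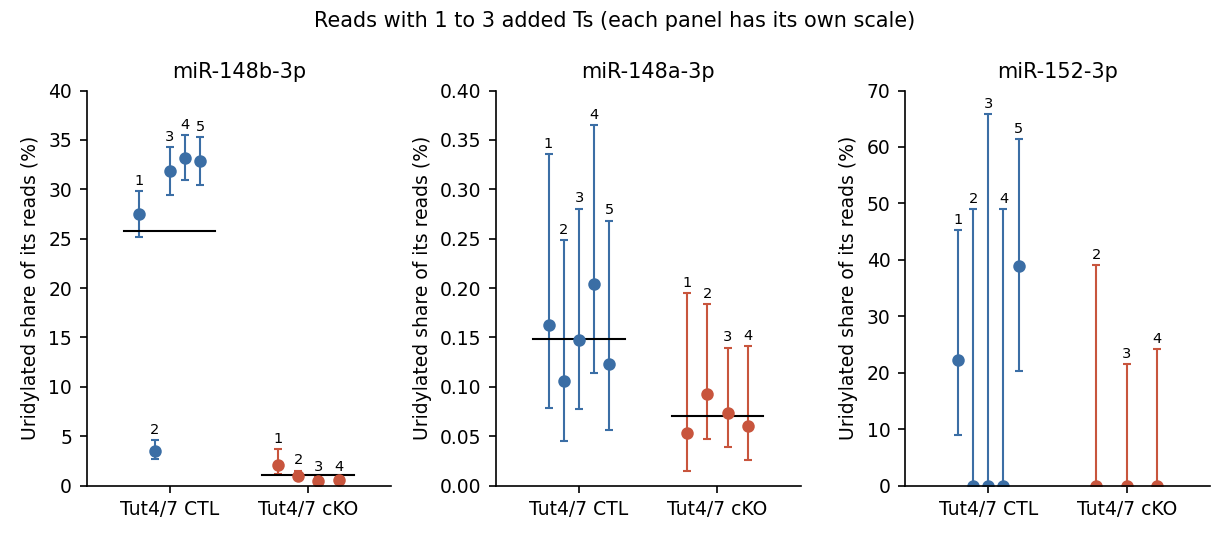
Share of each member's reads with 1 to 3 added Ts (y axis, percent, a separate scale per panel) for each Tut4/7 CTL and Tut4/7 cKO library, numbered by replicate, with 95% Wilson intervals and black lines at group means where drawn; Tut4/7 cKO replicate 1 had no miR-152-3p read. miR-148b-3p lies between 27.5% and 33.2% in 4 of 5 controls and at or below 2.12% in Tut4/7 cKO, whereas miR-148a-3p does not exceed 0.204% in any library.

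miR-152-3p was rare but not unmodified. It had 4 uridylated reads of 18 in control replicate 1 and 7 of 18 in replicate 5, and 0 of 4, 0 of 2 and 0 of 4 in replicates 2, 3 and 4. No uridylated read was seen among 6, 14 and 12 reads in Tut4/7 cKO replicates 2, 3 and 4. Pooled, these were 11 of 46 reads (23.9%, exact 95% interval 12.6% to 38.8%) against 0 of 32, which allows a share of up to 10.9%. These counts were too few to enter the test, and all 11 uridylated reads came from 2 libraries. miR-148a-5p had no uridylated read among 538 in the controls and among 481 after deletion, which allow shares of up to 0.683% and 0.764%. The opposite arm of the hairpin was therefore below detection in both genotypes, and it was not in the test.

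The difference between miR-148b-3p and miR-148a-3p within a library sets one against the other at the same depth and preparation. miR-148b-3p had the higher uridylated share in 5 of 5 controls and in 4 of 4 Tut4/7 cKO libraries. The excess was 27.3, 3.40, 31.7, 33 and 32.7 percentage points in Tut4/7 CTL, with a mean of 25.6 ± 12.6. In Tut4/7 cKO it was 2.06, 0.889, 0.427 and 0.470 points, with a mean of 0.962 ± 0.763. The design cannot reach p = 0.05 within either genotype, and the exact 2-sided sign-flip tests gave the smallest p they allow, 0.0625 for the 5 controls and 0.125 for the 4 Tut4/7 cKO libraries. Between genotypes the excess was 24.6 points smaller in Tut4/7 cKO (difference -24.6), with p = 0.0159 in an exact 2-sided permutation test, the smallest that 5 against 4 libraries can give. Since miR-148a-3p did not exceed 0.204% in any library, the excess in points nearly equals the miR-148b-3p share. This test therefore largely repeats the fall of miR-148b-3p. Taken as a log2 ratio of the odds, the difference between genotypes was -3.91, with p = 0.0317 in the exact permutation test.

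miR-148b-3p accounted for nearly all uridylated reads of the family. It supplied 22.7% of the family's reads in the controls but 96.3% ± 3.21 of its uridylated reads. In Tut4/7 cKO it supplied 71.7% ± 11.7 of the 14 to 27 uridylated family reads of each library. Over the 3 seed-sharing members, the uridylated share was 5.99% ± 2.95 among controls and 0.225% ± 0.0824 after deletion. The level of miR-148b-3p reads without added Ts was 4024 ± 798 CPM in the controls and 5259 ± 1152 CPM in Tut4/7 cKO, with overlapping ranges of 2926 to 4972 and 3790 to 6597. This difference was not tested.

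Of the 76 miRNAs covered by 50 or more reads throughout the 9 libraries, miR-148b-3p ranked 17 by mean uridylated share in Tut4/7 CTL and miR-148a-3p ranked 74, around a median of 4.60%. In Tut4/7 cKO they ranked 24 and 62, around a median of 0.354%. The members thus sat toward opposite ends in the controls. The miRNAs whose uridylated share over the 9 libraries was nearest to that of miR-148b-3p were miR-652-3p, miR-351-5p and miR-484, with root mean square differences of 3.31, 5.72 and 7.83 percentage points among 75 candidates. miR-652-3p had 27.1% ± 14.5 in Tut4/7 CTL and 0.791% ± 0.629 in Tut4/7 cKO. In control replicate 2 it had 2.22%, against 28.5% to 39.4% in the other controls. That library was part of the matching, so this likeness to miR-148b-3p follows from how miR-652-3p was chosen. miR-351-5p had 30.9% ± 17.1 and 0.0433% ± 0.0865, and miR-484 had 17.1% ± 8.79 and 0.206% ± 0.0605. These 3 end in GUG, CUG and GAU, so none of them shares the UGU end of miR-148b-3p.

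**Figure D3:**
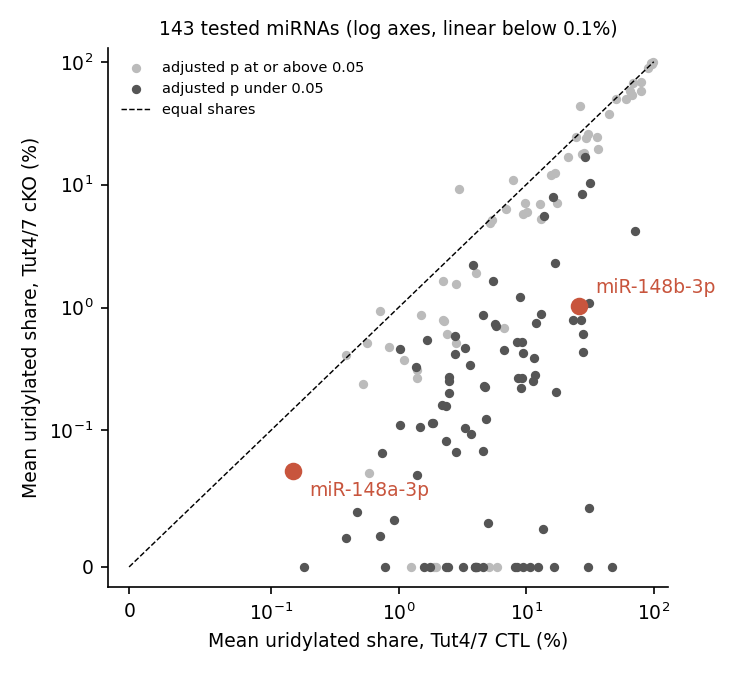
Mean uridylated share in Tut4/7 CTL (x axis) and Tut4/7 cKO (y axis), in percent, for the 143 tested miRNAs, on log axes that are linear below 0.1%, with miRNAs past an adjusted p of 0.05 in dark gray and a dashed line of equal shares. miR-148b-3p, at 25.8% and 1.03%, lies far below the line, and miR-148a-3p, at 0.149% and 0.0702%, lies near the lower left corner.

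Of the 143 tested miRNAs, 127 were matched to RefSeq, and 9 of these end in UGU, of which 7 are not members. Among the 7, 4 fell, 0 rose and 3 did not pass the test (57.1% fell, against 59.4% of all tested), with a median log2 change of -3.06 against -2.84. In 5 of the 7 the next base of the hairpin is U, unlike in the members, so that their Ts past the mature end can be templated. These 5 include miR-7a-5p, at 95.4% in the controls and 97.6% in Tut4/7 cKO, and miR-34a-5p, at 79.4% and 57.6%, neither of which passed. The other 2 of the 7, whose next base is not U, are miR-221-5p, which fell from 4.0% to 0%, and miR-6933-5p, which fell from 9.20% to 0.521%.

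Most tails of miR-148b-3p were a single T. In Tut4/7 CTL, 20.6% ± 10.0 of its reads had 1 T, 2.70% ± 1.38 had 2 and 2.44% ± 1.33 had 3, and in Tut4/7 cKO the shares were 0.944% ± 0.704, 0.0754% ± 0.0895 and 0.0129% ± 0.0258. All 3 tail lengths were thus lower in mean in Tut4/7 cKO. Among uridylated reads alone, those with 2 or 3 Ts were 20.1%, 14.6%, 22.2%, 19.2% and 18.9% in the controls. In Tut4/7 cKO they were 8.33%, 5.26%, 25% and 0%, resting on 1, 1, 3 and 0 reads. Pooled, 387 of 1943 uridylated reads had 2 or 3 Ts in Tut4/7 CTL (19.9%, exact 95% interval 18.2% to 21.8%) and 5 of 57 in Tut4/7 cKO (8.77%, 2.91% to 19.3%). The log2 change in the odds of a longer tail was -1.17 (SE 0.72), with an adjusted p of 0.220 in edgeR's quasi-likelihood test. It was -2.11 without Tut4/7 cKO replicate 3 and -0.74 without replicate 4, with adjusted p-values of 0.0689 and 0.464 in that test. That comparison called 19 of 59 miRNAs (32.2%), 17 of them lower (28.8%), with a median change of -1.17. Control replicate 2, with only 48 uridylated miR-148b-3p reads, had the lowest share of longer tails among the controls, from 7 of them. miR-148a-3p had 4 longer tails among 38 uridylated reads of the controls and 0 among 24 after deletion, which allows up to 14.2%. It did not pass the test either (adjusted p = 0.221 in edgeR's quasi-likelihood test).

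**Figure D4:**
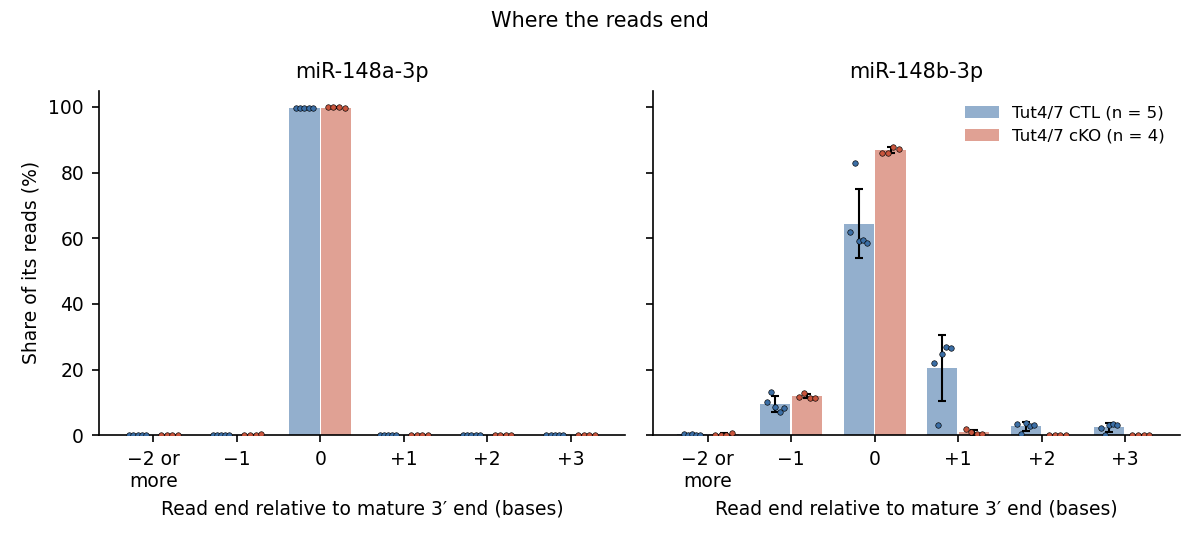
Share of reads (y axis, percent) by the position of the read end relative to the mature 3′ end (x axis, bases, with +1 to +3 being added Ts) for miR-148a-3p and miR-148b-3p; bars are means, error bars SD and points libraries, with Tut4/7 CTL (n = 5) in blue and Tut4/7 cKO (n = 4) in red. miR-148a-3p reads end almost entirely at 0, and miR-148b-3p reads spread from -1 to +3 in Tut4/7 CTL and lie mostly at -1 and 0 in Tut4/7 cKO, with the control library at 83.0% at the mature end being replicate 2.

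The 3′ ends differed between the members on the trimmed side as well, but not detectably between genotypes. Of miR-148b-3p reads without added Ts, 14.6%, 13.9%, 13.1%, 10.8% and 12.7% ended before the mature end in Tut4/7 CTL, and 12.1%, 13.1%, 11.8% and 12.2% in Tut4/7 cKO. The ranges overlapped. Nearly all of these reads were 1 base short, 12.7% ± 1.41 and 12% ± 0.628 of the reads without added Ts. The log2 change in odds was -0.09 (SE 0.18, adjusted p = 0.914 in edgeR's quasi-likelihood test), in a comparison that called 2 of 184 miRNAs (1.09%). miR-148a-3p was trimmed in 0.130% ± 0.0424 of such reads in the controls and 0.161% ± 0.161 in Tut4/7 cKO. Its Tut4/7 cKO libraries were at 0.107%, 0.0466%, 0.0900% and 0.399%, so replicate 4 alone was above every control. The log2 change was 0.06 (SE 0.53, adjusted p = 0.993 in the same edgeR test), and omitting Tut4/7 cKO replicate 4 gave -0.73 (adjusted p = 0.345 in that test).

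miR-148a-3p had the lowest trimmed share of all 76 well-covered miRNAs in both genotypes, where the medians were 27.8% in Tut4/7 CTL and 27.7% in Tut4/7 cKO. miR-148b-3p ranked 62 and 65 in them, so it too was trimmed less than most. Across these 76 miRNAs, which share libraries and depth, Spearman's rho between trimmed and uridylated share in the controls was -0.16, as a description. The excess of miR-148b-3p over miR-148a-3p in trimmed share was 12.9 ± 1.47 points in Tut4/7 CTL and 12.1 ± 0.620 points in Tut4/7 cKO, a difference of -0.76 with p = 0.381 in an exact permutation test. It was -1.33 (p = 0.0857 in the same exact test) without control replicate 4 and -0.37 (p = 0.686) without control replicate 1. Taking all mapped reads together, 99.7% ± 0.0735 of miR-148a-3p reads ended exactly at the mature end in Tut4/7 CTL and 99.8% ± 0.153 in Tut4/7 cKO. For miR-148b-3p this share was 64.5% ± 10.4 and 86.8% ± 0.875, and its Tut4/7 cKO libraries, from 86.0% to 87.8%, were all above the controls, from 58.6% to 83.0%. Only uridylated and trimmed reads are missing from this share, so it partly restates the uridylated share and is not a further result. How many of all miRNAs had no overlap in it is not given here.

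miR-148a-5p was trimmed in 7.42% ± 1.79 of its reads among the controls and 7.86% ± 3.94 after deletion, with a log2 change of -0.18 (SE 0.39, adjusted p = 0.932 in edgeR's quasi-likelihood test). The means and the fitted change thus differed in sign, and pooled reads gave 39 of 538 (7.25%) and 28 of 481 (5.82%). It was therefore trimmed more often than miR-148a-3p, which comes from the same hairpin, in every library. miR-152-3p had 9 of 35 reads trimmed in the controls and 7 of 32 in Tut4/7 cKO, or 25.7% and 21.9%, too few to enter the test.

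Reads that started after base 1, the only other 5′ ends that the reference could show, were rare. They made up 7 of 25362 and 11 of 32826 miR-148a-3p reads and 5 of 7399 and 2 of 7535 miR-148b-3p reads, with the controls given first. miR-148a-5p had 1 of 538 and 0 of 481, and miR-152-3p had none among 46 and 32. Neither tested member passed, with log2 changes in odds of 0.25 (SE 0.62, adjusted p = 0.924) for miR-148a-3p and -1.14 (SE 0.88, adjusted p = 0.658) for miR-148b-3p in edgeR's quasi-likelihood test, which called 1 of 117 miRNAs (0.855%).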

How the data were processed

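sRNA-seq libraries were made by the authors with the NEBNext small RNA kit and sequenced on a MiniSeq. Per the study's methods and the submitters' processing notes, adapters were removed with cutadapt 5.0 and reads mapped with Bowtie 1.3.1, allowing no mismatch, to miRBase mature sequences with 3 Ts added. The notes also name DESeq2 1.42.1. No genome build was named in the sources used here. The deposited values are raw read counts of each mature miRNA and of each read sequence, the latter with its start, end and the mark of an in-house pipeline for uridylated reads. This mark, the read lengths and the sums per miRNA were checked, with 0 differences. No replicate pair had identical or indistinguishable counts.

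Groups and replicate numbers came from the labels, and no library was left out. Abundance was tested in edgeR 4.0.16 (R 4.3.3; TMM, glmQLFit, glmQLFTest) for miRNAs that reached 10 reads in 4 or more libraries. Classes of reads (uridylated or not, trimmed or not, 2 or 3 Ts or 1, start off base 1 or on it) were tested in edgeR as the interaction of class and genotype, with each library as a term, and p-values were adjusted by Benjamini-Hochberg over all miRNAs tested. Entry to these tests needed 10 or more reads (10 reads without added Ts for trimming, 5 uridylated reads for tail length) in at least 5 libraries and the class in at least 3 libraries, which for uridylation were controls. The scripts were tested on simulated data, with planted log2 changes of 2 in size for abundance and of -3 for the classes of reads. Abundance recovered 50 of 50 planted changes and trimming 49 of 50. Uridylation recovered 31 of 47, tail length 9 of 19 and 5′ start 9 of 39. False calls numbered 0 to 4. The tests of uridylation, tail length and 5′ start can therefore miss changes of that size. Values with 1 number per library were compared by exact 2-sided permutation tests in SciPy 1.17.1. Where a share was 0, its limit is 3 counts of the total.

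Mature sequences were taken from RefSeq and located in GRCm39, with GENCODE annotation. Besides the 4 members, the text names the 3 miRNAs nearest to miR-148b-3p in uridylated share among those covered by 50 or more reads throughout. It also names the 7 other tested miRNAs ending in the same 3 bases, which were named singly only after their values were seen. The members, lists and tests were chosen with earlier results of these data known. Alternatives comprised DESeq2 1.42.0, RLE size factors, other read minimums, a quasi-binomial model, an entry rule blind to genotype, uridylated reads tested alone, a log2 odds scale, uridylated reads counted as reaching the 3′ end, a replicate block and the omission of each library.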

Additional observations from a re-analysis of the deposited data

Results flagged for a closer look

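In groups of 4 or 5 libraries, 4 of 34 groups of member values had 1 library far from the rest by Dixon's test. Chance flags about 1 of 20 groups when values are separate and continuous. The values here were not, so the count cannot be set against that rate. The flagged share and excess in control replicate 2 rest on the same miR-148b-3p reads, and the flagged 5′ starts rest on few reads. Control replicate 2 had a uridylated share of miR-148b-3p of 3.51%, against 27.5% to 33.2% in the other controls. The excess of miR-148b-3p over miR-148a-3p in the same library was 3.40 points, against 27.3 to 33. The median uridylated share over 138 miRNAs was low in this library too, and the cause was not tested. Control replicate 5 had 0.0821% of miR-148a-3p reads starting off base 1, against 0% to 0.0213% in the other controls, from 4 reads. Control replicate 4 had 1.14% of miR-148a-5p reads starting off base 1, from 1 read, against 0% in the others.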

How the results depend on the processing

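The fall of miR-148b-3p in uridylation held its direction and threshold in all 14 alternatives, from -5.75 to -4.79 with adjusted p at most 0.00339 in edgeR or the quasi-binomial model. miR-148a-3p missed the threshold in abundance in all 14 of its alternatives, at 0.28 to 0.46 with adjusted p from 0.0543 to 0.683. For miR-148a-3p uridylation, the quasi-binomial model gave -1.04 with an adjusted p of 0.00866, and omission of single libraries gave -1.19 to -0.91, past the threshold only without control replicate 2. Uridylated reads alone, without the reads they are set against, gave -0.65 (adjusted p = 0.384 in edgeR), and the replicate block -1.10 (adjusted p = 0.169). Counts of uridylated reads limit what miR-148a-3p and miR-152-3p can show. For the other results that moved, the cause was not tested.

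The abundance comparison, with 1 call (31 at an unadjusted p under 0.05) in edgeR, called 11 miRNAs in DESeq2, 18 of 817 without a filter on low counts, 0 of 128 with at least 50 reads (18 unadjusted), and 0 to 2 when single libraries were omitted (19 to 53 unadjusted). The change of miR-148b-3p in abundance, near 0, turned to 0.02 (0.0171) in DESeq2 and 0.02 (0.0158) with RLE size factors, and ranged from -0.26 to 0.0909 over single omissions. Over such omissions miR-148a-5p ranged from -0.49 to 0.0231 in abundance and from -0.48 to 0.08 in trimming. miR-148a-3p ranged from -0.73 to 0.44 in trimming and from -0.0078 to 1.08 in 5′ start. The abundance ratio ranged from -0.64 to -0.28. With uridylated reads counted as reaching the 3′ end, miR-148b-3p trimming was 0.39 (adjusted p = 0.407 in edgeR). The trimming comparison, with 2 calls, called 1 of 114 with at least 50 reads, 9 with uridylated reads counted as reaching the end, and 2 to 7 over single omissions, 7 being without control replicate 2. The tail length comparison, with 19 calls, called 13 to 23 over single omissions. The quasi-binomial change of miR-148a-3p in tail length, -29.61 with an adjusted p of 0.0217, rests on no longer tail in Tut4/7 cKO and is no estimate of size. The 5′ start comparison, with 1 call, called 4 of 90 with at least 50 reads, 0 in the quasi-binomial model (18 unadjusted) and 0 to 9 over single omissions, 9 being without control replicate 2. On a log2 odds scale the trimmed difference between miR-148b-3p and miR-148a-3p was 0.01 (0.0128, p = 1 in the exact permutation test).

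Replicate numbers are shared by the genotypes, but same-numbered libraries did not deviate together, with correlations of deviations in log2 CPM of -0.108, -0.200, 0.432 and 0.0795 for numbers 1 to 4 and between -0.0544 and 0.0853 in uridylated odds. A replicate block on these numbers left 0 abundance calls (24 unadjusted), 73 uridylation calls (85 without it), 2 trimming, 11 tail length and 3 5′ start calls. With the block, miR-148b-3p uridylation was -4.79 (adjusted p = 3.31e-11 in edgeR), miR-152-3p abundance 0.10 and miR-148a-3p trimming -0.16. The uridylated excess of miR-148b-3p changed by -22.9 points over the 4 numbers, with p = 0.125 in the exact paired permutation test, the smallest that 4 pairs allow.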
